A study of Mus musculus with 6 samples.

Results

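Dual-specificity phosphatases (DUSPs) and the Sprouty and SPRED proteins are the inducible brakes of MAPK signaling, and 10 of their genes were followed here in PP2Ac-deficient macrophages. The 10 genes were taken by symbol from the table of 55453 genes. They are Dusp1, Dusp2, Dusp4, Dusp5, Dusp6, Dusp10 and Dusp16, whose products are MAP kinase phosphatases, and Spry1, Spry2 and Spred1, whose products act on RAS and RAF. All 10 were in the table, and 9 of them had enough reads to be among the 13680 genes tested. The exception was Spry1.

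RNA-Seq was performed on 6 libraries of bone marrow-derived macrophages (BMDM) on the C57BL/6 background. The 3 PP2Ac KO libraries came from LysMcre PP2Ac fl/fl mice. In this conditional model Ppp2ca, which encodes the catalytic subunit PP2Ac, is deleted where the LysM driver is active, chiefly in myeloid cells, so that other cells in a culture would keep the gene. The 3 WT libraries came from wild-type mice, for which the sources name neither cre nor a floxed allele, so that cre and the loss of Ppp2ca cannot be told apart. The study describes BMDM of both genotypes treated with the STING agonist cGAMP for its RNA-Seq, at a single dose and a single time. Differences at other times cannot be read from these libraries. Its mice were of both sexes and of a range of ages, without a statement for the RNA-Seq. The sample labels give neither a treatment, an age, nor which animals or cultures the replicate numbers stand for. The p-values therefore measure the spread between these libraries. No untreated library was analysed here, so that every difference below is between genotypes. A difference present without cGAMP and a difference in the response to it cannot be told apart.

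MAP kinases (ERK, JNK and p38) are switched on by phosphorylation of a threonine and a tyrosine, and the MAP kinase phosphatases remove both phosphates. Most of these phosphatases are themselves made in response to MAPK activity and so form negative feedback loops. Sprouty and SPRED proteins restrain the same cascade upstream, between receptor tyrosine kinases and RAF. In macrophages, some DUSPs, though not all, are known to limit the output of cytokines after stimulation through innate receptors. PP2A is a separate, serine/threonine phosphatase that also acts on kinases of this cascade.

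Ppp2ca had at most 47 counts in any PP2Ac KO library and at least 8279 in any WT library, as the labels say. Library totals ran from 35257156 to 47390899 counts. Levels are given as CPM (counts scaled to a common library size) after TMM, a normalization in edgeR that corrects for differences in library composition. Of the macrophage markers, Csf1r, Cd68, Adgre1, Itgam, Mertk, Fcgr1 and Mrc1 were all above the filter on low counts, as was Lyz2, which had 260 to 421 counts. Lyz2, the gene of the LysM driver, was the lowest of them, at means of 8.86 CPM in PP2Ac KO and 7.30 CPM in WT. Csf1r had means of 3405 and 3011 CPM, and the reason for the low Lyz2 level was not tested. T cell, neutrophil and mast cell genes were nearly absent, with Cd8a, Ly6g, Tpsb2 and Mcpt4 at 0 in every library. From the same lists S100a8 (25 to 37 counts) and Kit (27 to 72 counts) were above the filter, and neither passed the test between genotypes.

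Across all genes, 37.1% of those tested passed at an edgeR adjusted p under 0.05, with 18.1% higher in PP2Ac KO BMDM and 19.0% lower. Of the genes that passed, 48.68% were higher, and 38.43% with upper-quartile scaling in place of TMM. Against this background, 8 of the 9 feedback genes tested were higher in PP2Ac KO, 0 were lower and 1, Dusp10, did not pass. The median log2 fold change of the 9 was 0.91, beside -0.02 for all genes tested. Dusp1, Dusp2, Dusp16 and Spred1 also passed the stricter threshold that the study uses for upregulated genes (FDR under 0.01 and a log2 fold change over 1), which 3.36% of all genes passed upward and 2.99% downward. In those same 8 genes every PP2Ac KO library lay above every WT library after TMM, as did 24.0% of all genes. Every PP2Ac KO library lay below in 26.8% of all genes, so that the genotypes were apart in 50.9% of genes, taking both directions. The lowest count of any of the 9 in any library was 125, so that none owed its place among the genes tested to 1 genotype. The summed level of the 10 genes was 861.7 to 1052 CPM in PP2Ac KO and 425.1 to 515.3 CPM in WT. In bulk RNA, more cells that express a gene and more RNA per cell cannot be told apart.

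**Figure D1:**
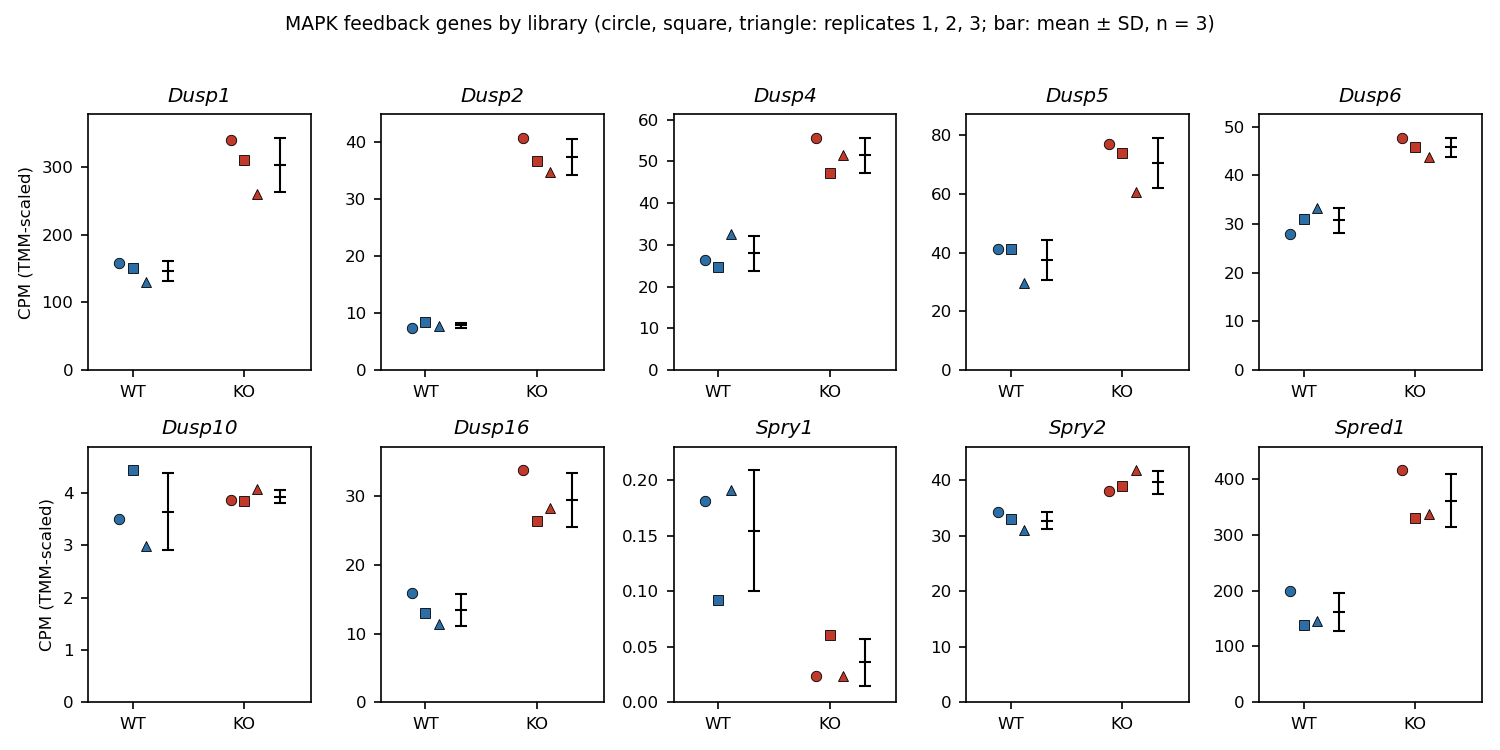
TMM-scaled CPM (vertical axes, each from 0) of the 10 feedback genes in each WT and PP2Ac KO library, with circles, squares and triangles for replicates 1, 2 and 3 and bars for the mean ± SD (n = 3). The PP2Ac KO points lie above all WT points in 8 panels, overlap them for Dusp10, and lie below them for Spry1, which had 1 to 9 counts a library.

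The upstream sequence of Dusp1, Dusp2 and Dusp5 is printed to show the motif matches found there, and the choice of these 3 genes was made after the matches and the expression values were seen. No relation between the motifs and the differences in expression was tested. RefSeq promoter windows (GRCm38.p6, from 250 bases before to 50 after the start of transcription) were at hand for 9 of the 10 genes. The bases from 150 to 51 before the start are shown 5′ to 3′ on the strand of the gene, with motif matches in capitals. For Dusp1 (chr17:26508523-26508622, reverse strand) these are a cAMP response element (CRE, TGACGTCA) and an E-box (CACGTG), for Dusp2 (chr2:127336009-127336108, forward strand) an E-box, and for Dusp5 (chr19:53528995-53529094, forward strand) a pair of adjoining CArG boxes, the core of the serum response element.
Dusp1: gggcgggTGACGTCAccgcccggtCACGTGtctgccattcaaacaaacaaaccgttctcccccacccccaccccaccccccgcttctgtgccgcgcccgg
Dusp2: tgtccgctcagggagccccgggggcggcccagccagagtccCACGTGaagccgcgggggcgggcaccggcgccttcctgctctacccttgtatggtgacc
Dusp5: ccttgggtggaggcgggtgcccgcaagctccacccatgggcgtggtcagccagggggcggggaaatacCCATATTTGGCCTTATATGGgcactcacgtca

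Both strands of each whole window were searched for 9 motifs, which were chosen after the expression values were seen. A CRE was found in the Dusp1 window alone of the 9, and in 1.79% of all 32851 RefSeq promoters of that length. CArG boxes were found in the Dusp5 window alone, and in 1.63% of all promoters. The E-box was found in the Dusp1 and Dusp2 windows and in 7.15% of all promoters. GGAATG, the TEAD motif, was found in the Spry1 window and in 14.7% of all promoters. None of the 9 windows held the AP-1 motif TGANTCA (7.81% of all promoters), the ISRE (TTTC, any 2 bases, TTTC; 3.44%), the GAS motif TTCNNNGAA (8.30%), the ETS motif CCGGAAGT (3.89%) or the NF-kB motif (8.46%). These matches describe letters in a window and are not measurements of binding.

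Among the inducible phosphatases of the nucleus, Dusp2 had the largest difference. Dusp2 (chromosome 2, 127336159 to 127338376, forward strand of GRCm38) encodes a phosphatase of ERK and p38 that is abundant in activated leukocytes. Its level was 40.7, 36.6 and 34.6 CPM in the PP2Ac KO libraries and 7.45, 8.39 and 7.66 CPM in the WT libraries. The lowest PP2Ac KO library was thus far above the highest WT library, and the spread within each genotype was small beside the gap. Mean levels were 37.3 ± 3.09 CPM (SD, n = 3) and 7.83 ± 0.496 CPM (SD, n = 3), and the log2 fold change was 2.25 (SE 0.09, edgeR adjusted p = 3.81e-06), or 4.76-fold. Of all genes tested, 0.548% had a larger log2 fold change in either direction, and Dusp2 stood at rank 43 of 13680 by increase.

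Dusp1 (chromosome 17, 26505590 to 26562128, reverse strand) encodes the phosphatase best known for turning off p38 and JNK in macrophages. It was the most highly expressed of the 10 genes per length, as described below. Its levels were 339.5, 309.7 and 260.4 CPM in PP2Ac KO and 158.2, 150.7 and 130.6 CPM in WT, so that replicate 3 was the lowest library of each genotype and the genotypes did not overlap. Dusp1 rose to 303.2 ± 40.0 CPM (SD, n = 3) in PP2Ac KO from 146.5 ± 14.3 CPM (SD, n = 3) in WT, a log2 fold change of 1.05 (SE 0.11, edgeR adjusted p = 1.69e-04).

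Dusp4 (chromosome 8, 34807297 to 34819894, forward strand) encodes a nuclear phosphatase of ERK and JNK. CPM values were 55.6, 47.2 and 51.6 in PP2Ac KO and 26.4, 24.8 and 32.7 in WT. The genotypes did not overlap, although WT replicate 3 was higher than the other WT libraries. The rise was 1.84-fold (log2 fold change 0.88, SE 0.11, edgeR adjusted p = 3.22e-04), from 28.0 ± 4.17 to 51.5 ± 4.19 CPM (SD, n = 3 each).

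Dusp5 (chromosome 19, 53529109 to 53542431, forward strand) encodes a nuclear phosphatase that acts on ERK alone. PP2Ac KO libraries had 77.0, 73.9 and 60.8 CPM and WT libraries 41.4, 41.3 and 29.7 CPM. As with Dusp1, replicate 3 was the lowest in each genotype and the groups were apart. The fitted difference was 0.91 on the log2 scale (SE 0.13, edgeR adjusted p = 8.20e-04), with means of 70.5 ± 8.58 and 37.5 ± 6.70 CPM (SD, n = 3 each). The antisense gene AC137853.2 shares 547 bp of exon with Dusp5, and the strand setting of the counting is not given in the sources used here, so that its reads could have been counted on Dusp5.

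Dusp6 (chromosome 10, 99263231 to 99267489, forward strand), the gene of the cytoplasmic ERK phosphatase, had the smallest fold change of the DUSPs that passed. Its levels were 47.6, 45.8 and 43.7 CPM in PP2Ac KO and 28.0, 31.1 and 33.2 CPM in WT. The libraries of each genotype were close together and the genotypes did not overlap. Dusp6 rose 1.49-fold, with a log2 fold change of 0.57 (SE 0.07, edgeR adjusted p = 4.67e-04) and means of 45.7 ± 1.98 and 30.8 ± 2.61 CPM (SD, n = 3 each).

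The phosphatases with a preference for the stress kinases JNK and p38, encoded by Dusp16 and Dusp10, differed from each other in their values. Dusp16 (chromosome 6, 134715468 to 134792625, reverse strand) had 33.8, 26.3 and 28.3 CPM in PP2Ac KO and 15.9, 13.0 and 11.4 CPM in WT. Replicate 1 was the highest library of each genotype, and no WT library reached the lowest PP2Ac KO library. Dusp16 rose 2.19-fold (log2 fold change 1.13, SE 0.13, edgeR adjusted p = 2.81e-04), from 13.4 ± 2.31 to 29.4 ± 3.88 CPM (SD, n = 3 each).

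Dusp10 (chromosome 1, 184013302 to 184075636, forward strand) was expressed at a low level, with 3.87, 3.85 and 4.07 CPM in PP2Ac KO and 3.50, 4.44 and 2.98 CPM in WT. WT replicate 2 was the highest of the 6 libraries and WT replicate 3 the lowest, so that the WT values enclosed those of PP2Ac KO. The log2 fold change was 0.11 (SE 0.15, edgeR adjusted p = 0.609). By replicate number, the difference between PP2Ac KO and WT was 0.14, -0.20 and 0.44 on the log2 scale. A small difference in either direction could not be told from the spread between the WT libraries.

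Of the RAS-side inhibitors, Spred1 was the one with a large difference. Spred1 (chromosome 2, 117121374 to 117182279, forward strand) encodes a membrane protein that recruits neurofibromin, the GTPase-activating protein that switches RAS off. Its levels were 415.4, 330.5 and 336.4 CPM in PP2Ac KO and 200.0, 137.6 and 145.6 CPM in WT. Replicate 1 was the highest library of both genotypes, and the lowest PP2Ac KO library was well above the highest WT library. Spred1 rose 2.24-fold (log2 fold change 1.16, SE 0.15, edgeR adjusted p = 4.02e-04), from 161.0 ± 34.0 to 360.8 ± 47.4 CPM (SD, n = 3 each).

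Spry2 (chromosome 14, 105891947 to 105896819, reverse strand), whose product blocks activation of RAS and RAF by growth factor receptors, had the smallest difference that passed the test. It had 38.0, 39.0 and 41.9 CPM in PP2Ac KO and 34.2, 33.0 and 31.1 CPM in WT. The genotypes were separate but near to each other, 38.0 against 34.2 CPM at the closest. The separation, and much of the fitted rise, depended on the TMM factors, which differ between the genotypes. By library totals alone, PP2Ac KO replicate 1 (1613 counts of 46647682) lay below WT replicate 1 (1701 counts of 47390899). The rise of 1.21-fold (log2 fold change 0.27, SE 0.07, edgeR adjusted p = 0.00988) was smaller than that of 44.7% of all genes tested, taken in either direction.

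Spry1 (chromosome 3, 37639947 to 37644598, forward strand), a paralog of Spry2, was barely detected and was not tested. It had 1, 2 and 1 counts in the PP2Ac KO libraries and 9, 4 and 8 counts in the WT libraries. All PP2Ac KO values were below all WT values, but those of PP2Ac KO were under the floor of 3 counts (0.0604 to 0.0909 CPM). Summed over libraries, 4 counts stood against 21, a ratio of 0.220 after scaling with an exact 95% interval of 0.0548 to 0.651, which covers counting error only. With no filter on low counts, the log2 fold change was -2.09 (SE 0.83) and did not pass (edgeR adjusted p = 0.0635 over 24686 genes). A gene model of unknown status on the opposite strand, Gm42922, shares 710 bp of exon with Spry1.

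**Figure D2:**
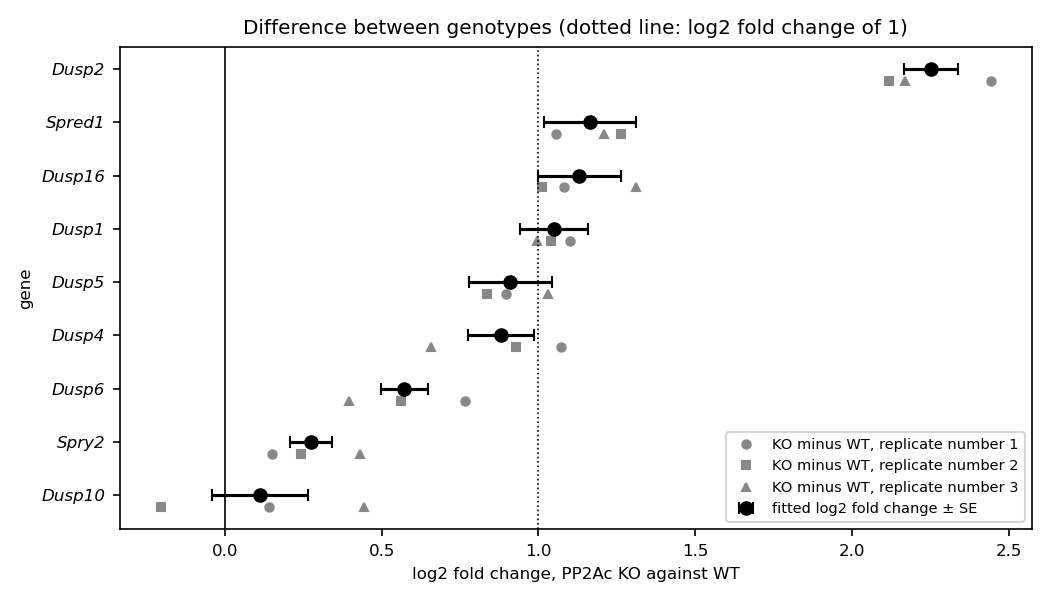
Log2 fold change of PP2Ac KO against WT (horizontal axis) for the 9 feedback genes tested, as fitted by edgeR (black, ± SE) and as the difference between libraries of the same replicate number (grey circles, squares and triangles for numbers 1, 2 and 3). Dusp2 stands apart at 2.25, Spred1, Dusp16 and Dusp1 lie just above 1, and the grey symbols of Dusp10 fall on both sides of 0.

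Taken by replicate number after TMM, 8 of the 9 genes were higher in PP2Ac KO in 3 of 3 pairs, as were 33.2% of all genes tested, with 37.6% lower in every pair. The differences of Dusp2 were 2.44, 2.12 and 2.17 on the log2 scale and those of Spred1 were 1.05, 1.26 and 1.21. Dusp4 and Dusp6 had their largest difference at number 1 (1.07 and 0.76) and their smallest at number 3 (0.66 and 0.40). Spry2 ran the other way, with 0.15 at number 1 and 0.43 at number 3. With the replicate block, a fit that adds the replicate number as a term, the same 8 genes were higher and Dusp10 did not pass. Of all genes, 24.4% were then higher and 26.4% lower (50.9% in all). The SEs and adjusted p-values printed above for the 9 genes are from the fit without the block. With it the SE of each of the 9 was smaller, from 0.04 for Dusp1 to 0.13 for Dusp10.

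**Figure D3:**
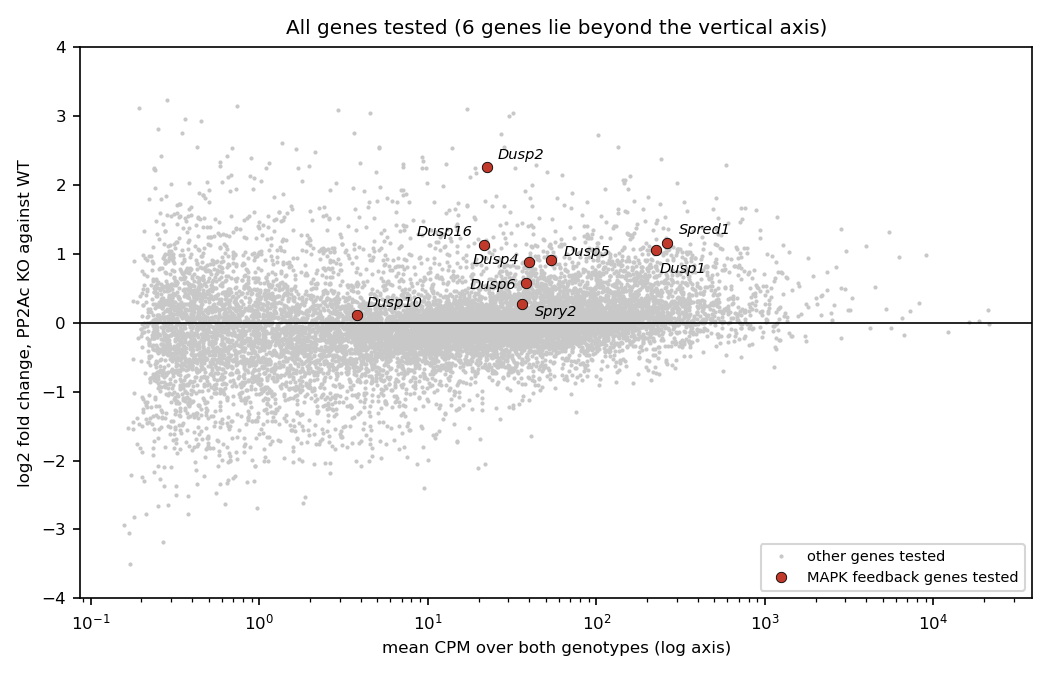
Log2 fold change of PP2Ac KO against WT (vertical axis) against mean CPM over both genotypes (horizontal log axis) for the 13680 genes tested, with the 9 feedback genes in red and 6 genes beyond the axis. Dusp2 lies near the upper edge of the cloud at its level, while Spry2 and Dusp10 lie within its centre.

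Levels between genes were compared per kilobase of merged exons (GENCODE M21, GRCm38). In WT BMDM, Dusp1 had the highest level at 44.3 ± 4.31 CPM per kilobase (SD, n = 3), followed by Spred1 at 23.7 ± 5.01. Spry2 (15.7 ± 0.762) and Dusp5 (15.2 ± 2.71) came next and overlapped, as did Dusp4 (10.2 ± 1.52) and Dusp6 (9.82 ± 0.832). Lower down were Dusp2 at 3.91 ± 0.248 CPM per kilobase, Dusp16 at 1.72 ± 0.297 and Dusp10 at 1.20 ± 0.243, the last of these overlapping with Dusp16. Spry1 was the lowest at 0.0532 CPM per kilobase.

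In PP2Ac KO, Dusp2 and Dusp6 exchanged places in the order, as did Dusp5 and Spry2. Dusp2 had 18.6 ± 1.54 CPM per kilobase (SD, n = 3) there and overlapped with Dusp4 (18.8 ± 1.53), which overlapped with Spry2 (19.0 ± 0.960). It was above Dusp6 (14.6 ± 0.632), below which it lay in WT. Dusp1 (91.6 ± 12.1) and Spred1 (53.2 ± 6.99) still led, with Dusp5 (28.5 ± 3.47) next and apart from both neighbours, Spry2 included. Dusp16 was at 3.78 ± 0.498 CPM per kilobase and was now apart from Dusp10 at 1.29 ± 0.0414. Of the summed CPM of the 10 genes, Dusp1 and Spred1 together held 69.3% to 71.8% in PP2Ac KO and 64.9% to 69.5% in WT. The share of Dusp2 was 3.87% to 4.02% in PP2Ac KO and 1.45% to 1.89% in WT.

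**Figure D4:**
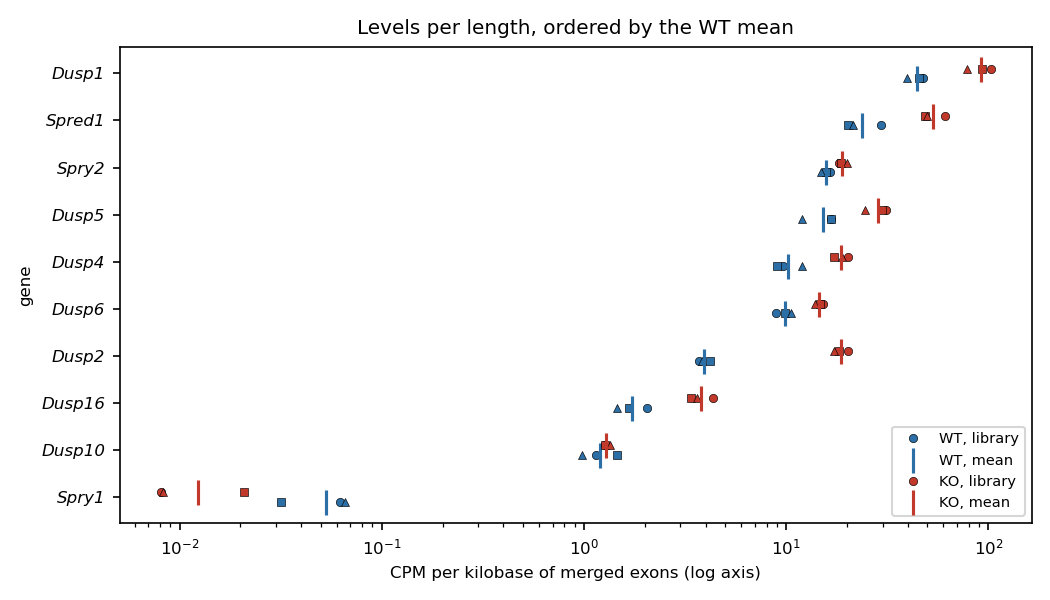
CPM per kilobase of merged exons (horizontal log axis) of the 10 feedback genes in WT (blue) and PP2Ac KO (red) libraries, ordered by the WT mean, with vertical marks for the means. Dusp1 and Spred1 lead in both genotypes, and Dusp2 moves from 3.91 in WT to 18.6 in PP2Ac KO.

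Within a genotype, the genes did not all vary together. The deviations from the genotype mean over the 6 libraries had r = 0.917 for Dusp1 and Dusp5 and r = 0.889 for Dusp16 and Spred1, while those of Dusp6 and Spry2 had r = -0.920. These pairs were picked as the most extreme of all pairs among the genes tested. The 6 points of each pair are centred within genotypes, share their libraries and scaling, and are given as a description. The coefficient of variation of the genes tested was 3.20% to 13.2% in PP2Ac KO and 4.85% to 21.1% in WT.

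The genes whose profile over the 6 libraries was nearest were found for the 4 feedback genes past the stricter threshold, by the root mean square distance of centred log2 CPM. This distance includes the difference between genotypes, so that genes with a like fold change come out near. Whether near genes share a regulation was not tested. For Dusp1 the nearest were Phlda1, counted below among the ERK-response genes (0.0360), and Tbc1d13 (0.0491). Ripk2, a kinase of NOD receptor signaling (0.0642), and the interferon-induced GTPase gene Mx1 (0.0662) were nearest to Dusp16. Spred1 was nearest to Gca (0.0298) and Srgap2 (0.0548). The nearest to Dusp2 were farther off, the formyl peptide receptor gene Fpr1 (0.144) and Gm614 (0.194), both of which were expressed at about 1 CPM or less.

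Differences in other phosphatases of the same family went in both directions, where 37.1% of all genes tested passed. Of 20 further DUSP and STYX genes, 15 were tested, of which 1 was higher, 4 were lower and 10 did not pass, with a median log2 fold change of -0.19. Dusp28 was higher (log2 fold change 1.22, SE 0.09, edgeR adjusted p = 5.65e-05). Dusp3, the most highly counted of them and the gene of a small phosphatase of ERK and JNK, fell by 0.75 on the log2 scale, from 221.1 ± 10.1 to 131.3 ± 8.72 CPM (SD, n = 3 each). Dusp18 fell by 1.11, Dusp9 by 0.63 and Dusp13 by 0.61. The ERK phosphatase gene Dusp7 (0.18, edgeR adjusted p = 0.206) and Dusp8 (0.38, edgeR adjusted p = 0.294), relatives of Dusp6 and Dusp16, did not pass. With the replicate block, 2 were higher, the further gene being Dusp11. Dusp7, Dusp8, Dusp9, Dusp11 and Dusp13 were named after their values were seen.

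Other feedback inhibitors of the RAS pathway differed in both directions, beside 18.1% higher and 19.0% lower of all genes tested. Of 15 tested, 1 was higher (Dok1, 0.35), 5 were lower and 9 did not pass, with a median log2 fold change of -0.04. The 5 were Lrig1 (-1.16), Errfi1 (-0.52), Dok2 (-0.44), the ubiquitin ligase gene Cblb (-0.39) and the RAS GTPase-activating protein gene Rasa1 (-0.20). These 6 genes and the paralogs that follow were named after their values were seen. Spred2 had 0.00 (SE 0.07, edgeR adjusted p = 0.995) and Spred3 had 0.13 (SE 0.13, edgeR adjusted p = 0.467), so that neither SPRED paralog passed. Spry4 had 3 to 15 counts a library and did not pass (edgeR adjusted p = 0.677), and Spry3 was not tested. The most highly counted gene, Rasa3, was at 0.20 (edgeR adjusted p = 0.0587) and passed with the replicate block (edgeR adjusted p = 0.00257), under which 3 were higher, with Sh2b3 as the third, and 6 lower.

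**Figure D5:**
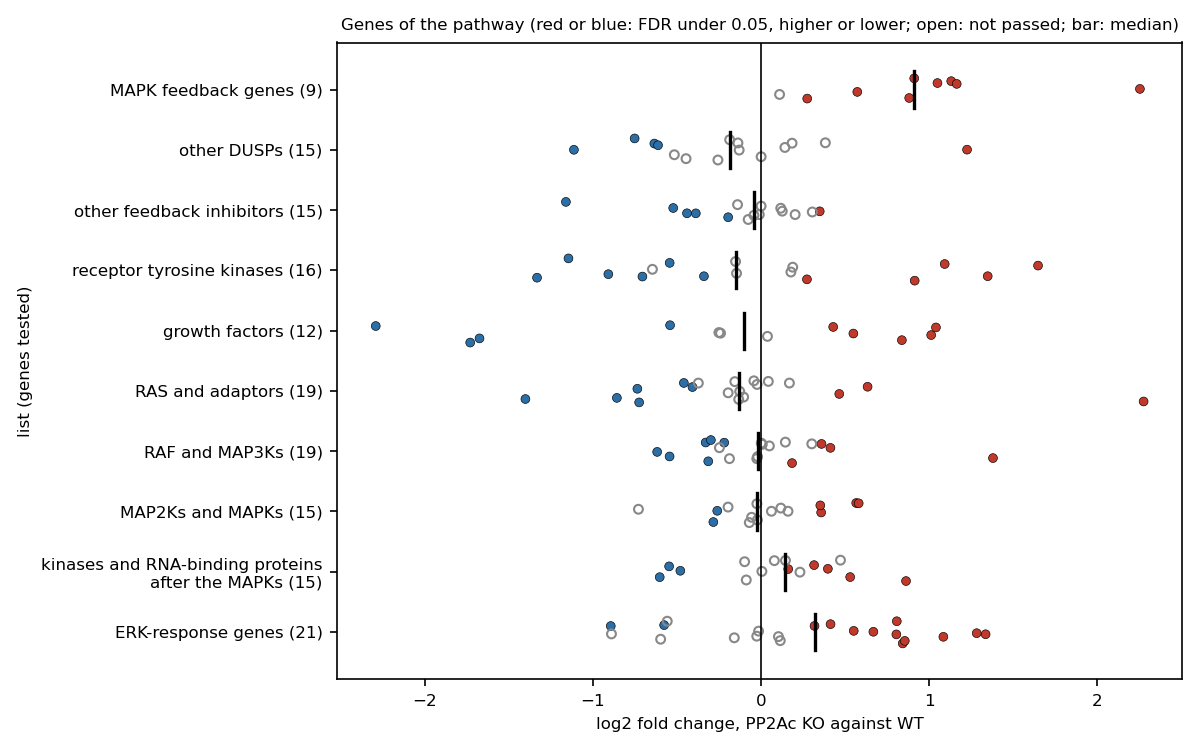
Log2 fold change of PP2Ac KO against WT (horizontal axis) for every gene tested in each list of the pathway, with the number tested in brackets, red and blue for an edgeR adjusted p under 0.05 and a black bar for the median. The feedback genes have a median of 0.91 and the ERK-response genes of 0.32, while the bars of the other lists lie between -0.19 and 0.15.

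In the cascade itself, from receptors to kinases, differences went in both directions. Of the receptor tyrosine kinase genes, 16 were tested, of which 5 were higher, 6 lower and 5 did not pass, with a median of -0.15. Axl, a receptor for apoptotic cells, averaged 744.7 ± 80.8 CPM in PP2Ac KO against 237.8 ± 40.7 CPM in WT (SD, n = 3 each, log2 fold change 1.65, SE 0.13, edgeR adjusted p = 6.16e-05). The VEGF receptor genes Flt1 (1.35) and Kdr (1.09) were higher, and the PDGF receptor gene Pdgfrb was lower (-1.14). Kdr is also an endothelial marker and Pdgfrb a fibroblast marker, groups whose levels are given at the end. The receptor for M-CSF, Csf1r, with the highest count, had 0.18 (edgeR adjusted p = 0.0976) and passed with the replicate block (edgeR adjusted p = 0.00280). Met and Mertk, the other 2 that were higher, were named after their values were seen and had 0.91 and 0.27. Those lower besides Pdgfrb, named likewise, were Pdgfra (-1.33), Egfr (-0.91), Igf1r (-0.71), Fgfr1 (-0.54) and Insr (-0.34).

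Growth factor genes showed 5 higher, 4 lower and 3 that did not pass of 12 tested, with a median of -0.10. Gas6, the ligand of AXL and the most highly counted of them, rose by 0.43 (SE 0.06, edgeR adjusted p = 9.17e-04), and Pdgfc by 1.04. Fgf2 (-2.29), Ereg (-1.73) and Fgf7 (-1.67) were lower, each with at most 95 counts a library. Csf1 (1.01), Pdgfb (0.84) and Vegfa (0.55), which were higher, and Hgf (-0.54), which was lower, were named after their values were seen.

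Of the RAS and adaptor genes, 3 were higher, 6 lower and 10 did not pass of 19 tested, with a median of -0.13. The guanine nucleotide exchange factor genes Rasgrp1 (2.27) and Rasgrp3 (-1.40) differed in opposite directions, Rasgrp1 from 4 to 14 counts in WT to 31 to 50 counts in PP2Ac KO. Sos1 (0.63) and Rasgrp4 (0.47), named after their values were seen, were the others that were higher. Those lower besides Rasgrp3, named likewise, were Ksr1 (-0.86), Rras2 (-0.74), Mras (-0.72), Ksr2 (-0.46) and Gab1 (-0.41). The adaptor gene Grb2, the most highly counted, was at 0.17 (edgeR adjusted p = 0.0620) and passed with the replicate block (edgeR adjusted p = 0.00657).

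Among RAF and MAP3K genes, 4 were higher, 6 lower and 9 did not pass of 19 tested, with a median of -0.02. Map3k13 (1.38, at 6 to 30 counts), Map3k14 (0.41) and Map3k8 (0.18) were among those higher and were named after their values were seen. For MAP2K and MAPK genes, 4 were higher, 2 lower and 9 did not pass of 15 tested, with a median of -0.02, and the replicate block gave 5 higher, with Map2k3, and 4 lower, with Map2k7 and Mapk11. Map2k1, which encodes a kinase that phosphorylates ERK, averaged 317.4 ± 7.83 CPM in PP2Ac KO against 212.2 ± 12.4 CPM in WT (SD, n = 3 each, log2 fold change 0.58, SE 0.07, edgeR adjusted p = 2.81e-04). Named after their values were seen, Mapk9 (0.57), Mapk6 (0.36) and Map2k4 (0.35) were higher, and the ERK genes Mapk7 (-0.28) and Mapk3 (-0.26) were lower. The p38 gene Mapk14 (-0.06), whose product is a target of the phosphatases, did not pass.

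Genes known to be transcribed after ERK activity had the highest median of the 9 other pathway lists. Of 21 tested, 11 were higher, 2 were lower and 8 did not pass, with a median log2 fold change of 0.32. Junb, an AP-1 subunit, averaged 539.1 ± 41.8 CPM in PP2Ac KO against 213.7 ± 15.3 CPM in WT (SD, n = 3 each, log2 fold change 1.34, SE 0.08, edgeR adjusted p = 3.90e-05). The cyclin gene Ccnd1 (1.28), Phlda1 (1.08) and Fos (0.81), the most highly counted, also rose. The 2 that were lower, Hmga2 (-0.89) and Etv5 (-0.58), were named after their values were seen. With the replicate block 11 were higher and 6 lower, so that the count of lower genes depended on the block. Among kinases and RNA-binding proteins that act after the MAPKs, 5 were higher, 3 lower and 7 did not pass of 15 tested, with a median of 0.15. Zfp36, whose product destabilizes cytokine mRNA, was the most highly counted and rose by 0.86 (SE 0.06, edgeR adjusted p = 5.51e-05). The others that were higher, named after their values were seen, were Mapkapk2 (0.53), Zfp36l1 (0.40), Zfp36l2 (0.32) and Elavl1 (0.16), and those lower were Rps6ka2 (-0.60), Mknk2 (-0.55) and Rps6ka1 (-0.48).

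Markers of other cells also differed between the genotypes. Of 8 fibroblast markers, 7 were tested and 6 were lower in PP2Ac KO, where their summed level was 25.4 to 37.7 CPM against 81.2 to 126.9 CPM in WT, with Lum at 0 to 6 counts. Of 8 proliferation genes, 6 were lower, among them Top2a (-1.18) and Mki67 (-0.98). Their summed level was 273.0 to 287.2 CPM in PP2Ac KO and 335.2 to 405.0 CPM in WT, most of it from Pcna, which did not pass, and without Pcna it was 73.4 to 79.5 CPM against 127.9 to 157.9 CPM. Of 4 endothelial markers, Cdh5 and Kdr were higher, Pecam1 did not pass (edgeR adjusted p = 0.0643), and Tek had at most 4 counts. The 4 summed to 200.8 to 249.6 CPM in PP2Ac KO against 86.8 to 137.6 CPM in WT. Most of the endothelial sum was Kdr, at 182.5 to 229.6 CPM in PP2Ac KO and 76.5 to 125.0 CPM in WT. Of 6 dendritic cell markers, 4 were tested and 2 were higher, Clec9a (1.25, edgeR adjusted p = 0.0284) and Siglech (0.97, edgeR adjusted p = 0.0194), each with at most 54 counts a library. The dendritic markers summed to 2.18 to 3.16 CPM in PP2Ac KO and 1.24 to 2.05 CPM in WT, and no dendritic marker was at 0 in all libraries. Macrophage markers summed to 7441 to 7639 CPM in PP2Ac KO and 6369 to 6978 CPM in WT, with Fcgr1 (0.70) and Mertk (0.27) higher and the other 6 of 8 not passing. With the replicate block, Csf1r, Lyz2 (edgeR adjusted p = 0.0118) and Pecam1 (edgeR adjusted p = 0.0265) were higher too. The part of these differences in the levels of the feedback genes was not tested.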

How the data were processed

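Poly(A) RNA of 6 BMDM libraries was sequenced as paired ends. The authors deposited 1 table of whole-number read counts per gene symbol, without normalization, on mm10. The submitters' processing notes list fastp 0.20.0, kallisto 0.46.1, STAR 2.7.1a, HTSeq 0.11.2, edgeR 3.34.0 and limma 3.48.3 without their roles. The annotation and strand setting of the counting are not given in the sources used here, so reads of overlapping antisense genes cannot be told apart.

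Genotypes were compared with edgeR 4.0.16 in R 4.3.3 (filterByExpr at a minimum count of 10 and total of 15, TMM, glmQLFit and glmQLFTest on genotype, Benjamini-Hochberg adjustment over 13680 genes). A gene passed at an adjusted p under 0.05. Standard errors are the size of the log2 fold change divided by the square root of F. With 3 libraries a group, an exact permutation test of a single value cannot give a p under 0.1. Of 55453 genes, 30767 had no count. A floor of 3 counts corresponded to 0.0604 to 0.0909 CPM, for counting error only.

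The feedback genes and pathway lists were chosen with earlier results of these data known. The genes named were all 10 feedback genes, on each list up to 4 genes at FDR under 0.01 with a log2 fold change over 1 or under -1 and the most highly counted gene, the 2 nearest profiles of each feedback gene past that threshold, Ppp2ca and cell markers. Genes named after their values were seen are marked as such, and some genes under the rule are not reported here.

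Genotypes and replicate numbers come from the labels. Deviations from the group means correlated between libraries of the same number (r = 0.289, 0.148 and 0.337), so the numbers were taken to pair the libraries. The values between other libraries (-0.258 to -0.031) are tied to these by the centring on group means and add no support. The main fit leaves the number out, and the fit with the replicate block is an alternative. The labels do not say what a number stands for. No libraries of a group agreed within sampling noise (chi-square per degree of freedom 9.54 to 46.0). The alternatives tried were the replicate block, DESeq2 1.42.0, limma-voom (limma 3.58.1), scaling by RLE or by the upper quartile, leaving out the filter, keeping genes with 10 or more counts in all libraries, and leaving out each library. The script was tested on simulated data. Coordinates and exon lengths are from GENCODE M21 (GRCm38), whose symbols matched 98.4% of the table, and promoter sequences are from RefSeq (GRCm38.p6).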

Additional observations from a re-analysis of the deposited data

How the results depend on the processing

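The 13 alternatives all gave 8 feedback genes higher and 0 lower. The number past the stricter threshold was 4, but 3 with upper-quartile scaling, and 3 to 5 when single libraries were left out (3 without PP2A-KO replicate 1 and 5 without PP2A-KO replicate 3). With the replicate block the count of feedback genes was 8 higher and 0 lower, and the counts over all genes were 3343 higher and 3615 lower, against 2470 and 2604 without it. Besides Rasa3, Csf1r, Grb2 and the genes named in the report as passing with the block, it changed no call of a pathway gene named there, and it gave 7 fibroblast and 7 proliferation genes lower. Higher with the block were 4 macrophage markers, Csf1r and Lyz2 included, and 3 endothelial markers, Pecam1 included. The block counts, higher and lower, were 5 and 8 for RAF and MAP3K genes, 4 and 8 for RAS and adaptors, 7 and 3 for genes acting after the MAPKs, 6 and 6 for receptors and 5 and 5 for growth factors. Rasa3 and Grb2 also passed with RLE scaling, with DESeq2 and without WT replicate 1, and Csf1r with the last 2 of these. Mertk did not pass with upper-quartile scaling, without any 1 of the PP2A-KO replicates, or without WT replicate 2 or 3 (edgeR adjusted p of at most 0.138). In all, 25 values of single genes outside the feedback set came to pass under an alternative and 8 no longer passed. Over all genes, leaving out single libraries gave 1974 to 2721 higher and 1873 to 2720 lower, and upper-quartile scaling gave 2095 and 3356, so that 38.43% of calls were higher against 48.68% with TMM. Dusp2 ranged from 2.18 to 2.31 over the alternatives, Spred1 from 1.04 to 1.35, Dusp16 from 1.01 to 1.27, Dusp1 from 0.95 to 1.15, and Spry2 from 0.21 to 0.31 with an edgeR adjusted p of at most 0.0360. Dusp10 ranged from -0.0088 without WT replicate 3 (edgeR adjusted p = 0.973) to 0.28 without WT replicate 2, and so changed sign. Of the markers, Itgam (-0.19 to 0.016, positive without WT replicate 1) and Mrc1 (-0.21 to 0.030, positive without WT replicate 3) also changed sign with single libraries left out. With an arm of 2 libraries, the spread is pooled over both genotypes. Spry1, at 1 to 9 counts a library (0.0236 to 0.191 CPM), was below the filter, so that its comparison between genotypes rested on few counts.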
